A study of Saccharomyces cerevisiae with 8 samples.

Results

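The cell wall of budding yeast, Saccharomyces cerevisiae, and the kinase pathway that guards it are described here from 46 genes on 8 arrays, 4 of yeast with an empty vector and 4 of yeast that carried a plasmid for Kir2.1. The genes were taken from a list of wall mannoproteins, glucan and chitin enzymes, wall sensors and members of the Slt2 pathway, named by their known roles. All 46 were measured, each by 1 probe set of its own, among 5449 yeast genes in all. Kir2.1 is an inwardly rectifying potassium channel of mammals, and the question addressed is which yeast transcripts differ when that foreign membrane protein is made. The control cultures contained the vector pRSGPD426 and the others pRS416TEF-Kir2.1-HA, so the backbone and promoter of the plasmid differ between the groups too. Both were grown in selective medium at 26 degrees and harvested in mid-log phase. The strain background is not given in the sources used here, and only the 4 control arrays are marked in the labels as a re-analysis. Anything that mark may stand for and the effect of the channel cannot be told apart. The series calls its replicates biological, and it names no separate batches for them.

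The yeast wall is a mesh of glucan chains with a little chitin, covered by mannoproteins that are linked to the glucan either through a remnant of a lipid anchor or, for the Pir proteins, directly. Sensor proteins of the Wsc and Mid families span the plasma membrane and report stretch or damage of the wall to the small GTPase Rho1. Rho1 activates the kinase Pkc1, which sets off a chain of kinases ending in Slt2, and Slt2 activates the transcription factor Rlm1, whose targets include wall proteins and enzymes. Heat, drugs that bind chitin or block glucan synthesis, and swelling are known to switch this pathway on.

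The authors deposited standardized scores, from which a log2 scale was rebuilt, and a level is the log2 distance of a gene from its array's median gene. Each difference is the Kir2.1 mean less the control mean. A gene was called where its Benjamini-Hochberg adjusted p in limma, a linear model fitted across all 5449 genes, was under 0.05. All 46 were above background on all 8 arrays, background being the 95th percentile of the Schizosaccharomyces pombe probe sets that the array also holds.

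Among the wall genes 2 patterns stood out. Structural genes such as BGL2, SED1, CCW14 and PIR1 varied little between cultures and stood slightly higher on each Kir2.1 array than on any control array. PIR3, GSC2, PTP2 and SRL3, chosen here as examples, varied more. They were high on vector control replicate 1 and on Kir2.1 replicates 1 and 3, with Kir2.1 replicate 4 joining them for PIR3, PTP2 and SRL3. They were low on vector control replicates 2 to 4 and on Kir2.1 replicate 2. The kinases PKC1, BCK1 and MKK1 and the septum chitin synthase CHS2 had slightly lower means with Kir2.1. No member was called. The smallest adjusted p of a member in limma was 0.551, as it was over all genes, and limma called 0% of all genes in either direction.

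Of the 46 genes, 39 had a higher mean with Kir2.1 and 7 a lower one, beside 58.7% and 41.3% of all genes. The median difference was 0.21 on the log2 scale, beside 0.03 over all genes. In 18 members, 39.1% of them, each Kir2.1 value exceeded each control value, a pattern that 5.05% of all genes showed, and 0 members lay wholly below, beside 1.54% of all genes. At an unadjusted p under 0.05 in limma, 20 members were higher, 43.5% of them beside 6.37% of all genes, and 0 were lower, beside 1.98%. The 18 members without overlap differed by 0.07 to 0.29. A 95% interval within 2-fold in either direction held for 45 of the 46 genes, beside 5306 of all 5449. PIR3 was the exception among the 46.

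These counts moved with brightness and with the scaling. Among the brightest decile of all genes, 24.6% lay wholly above the controls, with a median difference of 0.12, and 21 of the 46 members belong to that decile. Of those 21, 14 lay wholly above the controls, 66.7%, beside 22.9% of the 524 other genes of that decile, and their median difference was 0.21 beside 0.11. Of the 25 dimmer members, 4 did, 16% of them beside 2.88% of the 4904 genes outside that decile. At an unadjusted p under 0.05 in limma, 71.4% of the 21 bright members were higher, beside 26.6% of the whole brightest decile. Quantile normalization forces 1 common distribution on the arrays. With it, 36 of the 46 members still had a higher mean with Kir2.1, beside 48.8% of all genes, but 1 member, SCW10, lay wholly above the controls, beside 1.78% of all genes. The 18 members had a median difference of 0.21 before and 0.06 after that step. After it, 3 of the 46 members were higher at an unadjusted p under 0.05 in limma, beside 119 of all 5449 genes. None of those 3 was among the 21 bright members. The median difference over all members was then 0.08, beside -0.0034 over all genes. With no centring of the arrays, 3 members lay wholly above, beside 0.184% of all genes, and with centring on the 75th percentile 12 did, beside 2.55%.

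**Figure D1:**
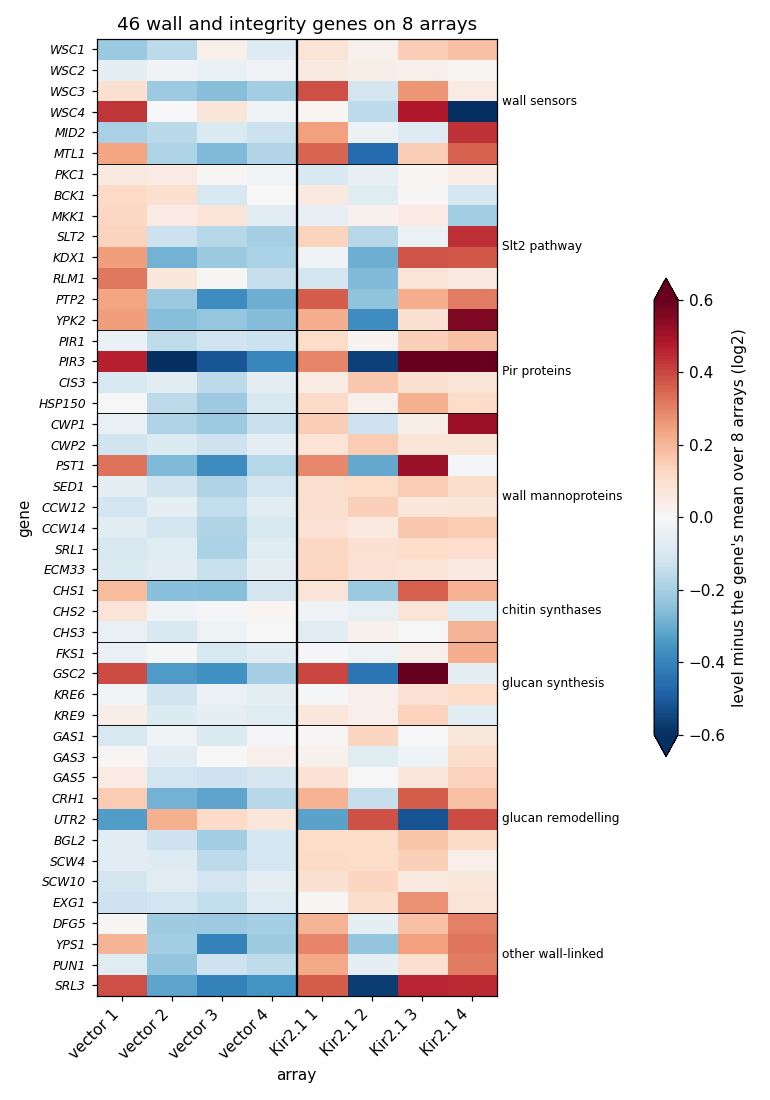
Level of each of the 46 genes (rows, by class) on each of the 8 arrays (columns) minus the gene's own mean over the 8 arrays, on the log2 scale; colours saturate at 0.6 in either direction. The mannoproteins other than CWP1 and PST1 form a pale block that turns at the line between the groups, while PIR3, GSC2, PTP2 and SRL3 are strongly coloured, with vector control replicate 1 and the Kir2.1 replicates 1 and 3 high and Kir2.1 replicate 2 low.

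The sensors come first in the pathway. WSC1 (YOR008C), the main sensor of wall stretch during growth, stood at 0.80, 0.87, 1.05 and 0.95 in vector control replicates 1 to 4 and at 1.10, 1.05, 1.17 and 1.20 in Kir2.1 replicates 1 to 4. The highest control value touched the lowest Kir2.1 value, so the groups just overlapped. The difference was 0.21 (SE 0.07, limma adjusted p = 0.551), and 0.18 after quantile normalization. MID2 (YLR332W), a sensor known for its part in mating and in responses to chitin-binding drugs, was steady in the controls at 1.12, 1.15, 1.22 and 1.18 and spread in the Kir2.1 arrays at 1.56, 1.28, 1.24 and 1.74. Every Kir2.1 value lay above the controls, with replicates 1 and 4 far above and replicates 2 and 3 just above. Its difference was 0.29 (SE 0.11, limma adjusted p = 0.568), and 0.25 after quantile normalization, where the groups overlapped.

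WSC4 (YHL028W), a further member of the Wsc family, was the sensor that varied most. It read 1.17, 0.74, 0.81 and 0.72 in the controls and 0.75, 0.58, 1.22 and -0.08 with Kir2.1, so that Kir2.1 replicate 4 was the lowest array and Kir2.1 replicate 3 the highest. Its difference of -0.24 (SE 0.25, limma adjusted p = 0.766) was smaller than its spread within the groups. WSC2, WSC3 and MTL1, the remaining sensors, had higher means with Kir2.1. WSC2 was among the steadiest genes measured, with a span of 0.11 over the 8 arrays, while its relative WSC3 spanned 0.64. Over the 6 sensors the mean level was 0.74 ± 0.08 (SD, n = 4) in the controls and 0.88 ± 0.14 (SD, n = 4) with Kir2.1, a difference of 0.14 (SE 0.08).

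Within the kinase cascade, the upstream kinases had slightly lower means with Kir2.1. PKC1, BCK1 and MKK1 differed by -0.09 to -0.05, with standard errors of 0.05 to 0.08. Unlike the 8 wall mannoproteins, none of them belongs to the brightest decile, so brightness differs between these classes too. SLT2 (YHR030C), the kinase at the end of the chain, stood at 1.38, 1.11, 1.07 and 1.05 in the controls and at 1.38, 1.08, 1.21 and 1.68 with Kir2.1. Kir2.1 replicate 4 was the highest array, while vector control replicate 1 equalled Kir2.1 replicate 1 and Kir2.1 replicate 2 lay among the other controls. The difference was 0.18 (SE 0.14, limma adjusted p = 0.711), and 0.07 without Kir2.1 replicate 4. RLM1 (YPL089C), the transcription factor under Slt2, read 0.998, 0.75, 0.69 and 0.54 in the controls and 0.57, 0.42, 0.76 and 0.74 with Kir2.1. The groups overlapped throughout, with a difference of -0.12 (SE 0.11, limma adjusted p = 0.749).

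KDX1, PTP2 and YPK2 varied more over the arrays than the upstream kinases. KDX1 (YKL161C), a kinase related to Slt2, was at -0.18, -0.71, -0.65 and -0.62 in the controls and at -0.45, -0.72, -0.05 and -0.06 with Kir2.1. Vector control replicate 1 and the Kir2.1 replicates 3 and 4 stood apart from the other arrays, and the difference was 0.22 (SE 0.18, limma adjusted p = 0.718). PTP2 (YOR208W), a phosphatase that turns Slt2 off, was at 0.97, 0.51, 0.37 and 0.44 in the controls and at 1.10, 0.49, 0.96 and 1.05 with Kir2.1. Here vector control replicate 1 sat with Kir2.1 replicates 1, 3 and 4, Kir2.1 replicate 2 sat with the other controls, and no array lay between 0.51 and 0.96. PTP2 had the largest difference of the cascade, 0.33 (SE 0.17, limma adjusted p = 0.658). YPK2 (YMR104C), a kinase that acts beside the pathway in signalling from the plasma membrane, had its values in a similar order, with 0.05 on vector control replicate 1, 0.37 on Kir2.1 replicate 4 and -0.57 on Kir2.1 replicate 2, and differed by 0.25 (SE 0.20, limma adjusted p = 0.716). The mean of the 8 cascade genes was -0.01 ± 0.15 (SD, n = 4) in the controls and 0.07 ± 0.15 (SD, n = 4) with Kir2.1, a difference of 0.08 (SE 0.11).

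**Figure D2:**
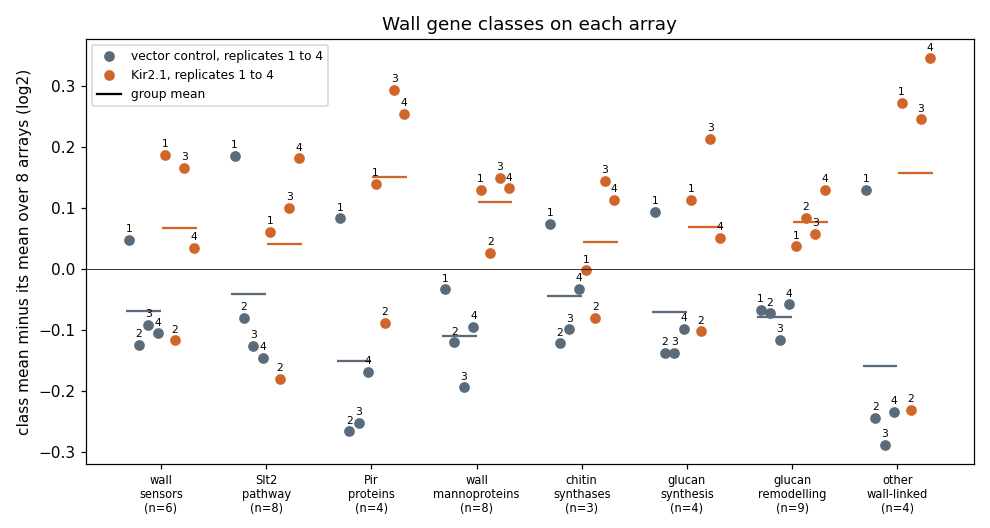
Mean level of each class of genes on each array, as the difference from its mean over the 8 arrays (log2); numbers are replicates, grey points vector controls, orange points Kir2.1 arrays and bars group means. In the mannoproteins and the glucan remodelling enzymes every Kir2.1 point lies above every control point, whereas in the sensors, the Slt2 pathway and the other wall-linked genes vector control replicate 1 lies high and Kir2.1 replicate 2 low.

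The Pir proteins, mannoproteins with internal repeats that bind glucan directly, held both patterns side by side. PIR1 (YKL164C) stood at 3.30, 3.19, 3.22 and 3.21 in the controls and at 3.45, 3.36, 3.48 and 3.52 with Kir2.1, without overlap, a difference of 0.22 (SE 0.06, limma adjusted p = 0.551) or 1.17-fold. CIS3 (YJL158C) read 3.83, 3.86, 3.77 and 3.87 in the controls and 3.97, 4.09, 4.02 and 4.001 with Kir2.1, also apart, and differed by 0.19 (SE 0.05, limma adjusted p = 0.551). After quantile normalization these differences were 0.10 and 0.05 and the groups overlapped. HSP150, the fourth member of the family, behaved like PIR1 and CIS3, with its groups apart before that step.

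PIR3 (YKL163W) was the most variable of all 46 genes. It stood at 2.98, 1.82, 1.997 and 2.12 in the controls and at 2.80, 1.95, 3.24 and 3.17 with Kir2.1. Vector control replicate 1 lay above Kir2.1 replicate 1, and Kir2.1 replicate 2 lay within the range of the remaining controls, so the groups overlapped across most of their range. Its difference of 0.56 (SE 0.33, limma adjusted p = 0.694), 1.48-fold with a 95% interval from 0.871 to 2.50, was the largest of the 46 and also the least precise. PIR1 and PIR3 are direct neighbours on chromosome XI, and over the 8 arrays PIR1 spanned 0.33 and PIR3 1.42. HSP150 and CIS3 are likewise neighbours on chromosome X, and both belonged to the steady kind. The class mean was 3.29 ± 0.16 (SD, n = 4) in the controls and 3.59 ± 0.17 (SD, n = 4) with Kir2.1.

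Among the other wall mannoproteins, all 8 genes had a higher mean with Kir2.1, and in 6 of them the groups were apart, beside 58.7% and 5.05% of all genes. All 8 belong to the brightest decile, where 88.1% of genes had a higher mean and 24.6% lay wholly above the controls. After quantile normalization all 8 still had a higher mean, beside 48.8% of all genes, but the groups were apart in 0 of them. SED1 (YDR077W), an abundant protein of the stress-resistant wall, stood at 4.34, 4.28, 4.22 and 4.29 in the controls and at 4.50, 4.51, 4.55 and 4.50 with Kir2.1. CCW14 (YLR390W-A), a protein of the inner wall layer, stood at 3.86, 3.82, 3.75 and 3.83 against 4.01, 3.99, 4.09 and 4.08. CCW12 (YLR110C), a small protein that reinforces new wall at sites of growth, stood at 4.50, 4.56, 4.47 and 4.55 against 4.71, 4.76, 4.68 and 4.68. In all of them the gap between the groups was wider than the spread within either group. SED1 differed by 0.23 (SE 0.05), CCW14 by 0.23 (SE 0.05) and CCW12 by 0.19 (SE 0.05), each with a limma adjusted p of 0.551. After quantile normalization SED1 differed by 0.07 and CCW14 by 0.09. CCW12 held rank 2 or 3 of all 5449 genes on each array, each rank equally often in both groups, so that this step left it a difference of 0. CWP2, SRL1 and ECM33, also structural proteins, were of the same kind.

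CWP1 and PST1 were the exceptions among the mannoproteins. CWP1 (YKL096W), which was singled out after its values were seen, read 3.20, 3.06, 3.03 and 3.12 in the controls and 3.40, 3.13, 3.29 and 3.76 with Kir2.1. Kir2.1 replicate 4 stood far above all other arrays and Kir2.1 replicate 2 fell inside the control range. The difference was 0.29 (SE 0.13, limma adjusted p = 0.597), and its neighbour CWP2 on chromosome XI spanned 0.28 over the arrays where CWP1 spanned 0.73. PST1 (YDR055W), a protein secreted by cells that rebuild a damaged wall, read 3.07, 2.47, 2.36 and 2.57 in the controls and 3.03, 2.43, 3.26 and 2.73 with Kir2.1. It was high on vector control replicate 1 and the Kir2.1 replicates 1 and 3 and differed by 0.24 (SE 0.21, limma adjusted p = 0.731), while ECM33, its close relative, spanned 0.26 over the arrays beside 0.90 for PST1. The mean of the 8 genes was 3.77 ± 0.07 (SD, n = 4) in the controls and 3.99 ± 0.06 (SD, n = 4) with Kir2.1, a difference of 0.22 (SE 0.04), and 0.08 after quantile normalization.

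**Figure D3:**
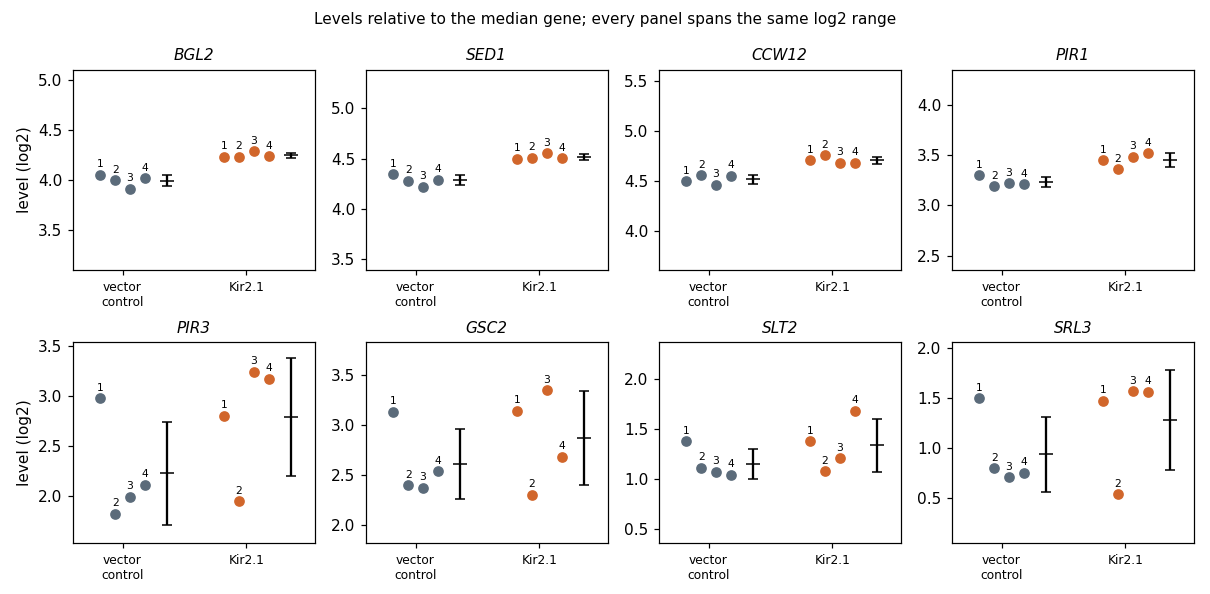
Level of 8 genes on each array, relative to the median gene (log2); numbers are replicates, and the bar beside each group is its mean with the SD over 4 arrays. In the upper row the groups do not overlap and the spread is small; in the lower row PIR3, GSC2, SLT2 and SRL3 overlap, with vector control replicate 1 high and Kir2.1 replicate 2 low.

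None of the chitin synthases had groups that were apart. CHS3 (YBR023C), which makes most of the wall's chitin, stood at 1.53, 1.48, 1.55 and 1.58 in the controls and at 1.51, 1.60, 1.57 and 1.78 with Kir2.1, and only Kir2.1 replicate 4 stood apart. Its difference was 0.08 (SE 0.07, limma adjusted p = 0.721), with a 95% interval from -0.07 to 0.24, which bounds the size of a difference at this precision. CHS1 (YNL192W), which repairs chitin after cell separation, stood at 1.39, 0.94, 0.94 and 1.09 against 1.27, 0.97, 1.55 and 1.40, and differed by 0.21 (SE 0.14, limma adjusted p = 0.711). Its high arrays were again vector control replicate 1 and the Kir2.1 replicates 1, 3 and 4.

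Glucan synthesis showed a steady and a variable gene for the same enzyme. FKS1 (YLR342W), the catalytic subunit of glucan synthase in growing cells, read 3.54, 3.57, 3.48 and 3.51 in the controls and 3.57, 3.54, 3.60 and 3.79 with Kir2.1. The groups overlapped and the difference was 0.11 (SE 0.07, limma adjusted p = 0.707), which became -0.01 after quantile normalization. GSC2 (YGR032W), the alternative subunit that is known to be induced by wall stress, by calcium and on poor carbon sources, read 3.13, 2.40, 2.38 and 2.54 in the controls and 3.14, 2.30, 3.35 and 2.68 with Kir2.1. It was high on vector control replicate 1 and the Kir2.1 replicates 1 and 3, and its difference was 0.26 (SE 0.25, limma adjusted p = 0.757). GSC2 spanned 1.04 over the arrays and FKS1 0.31. KRE6 (YPR159W), which acts in the synthesis of the branched glucan that holds mannoproteins, differed by 0.11 (SE 0.05, limma adjusted p = 0.627) without overlap, and KRE9, of the same route, overlapped.

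Enzymes that cut and rejoin glucan were mostly of the steady kind. BGL2 (YGR282C), a glucan transferase and one of the most abundant enzymes of the wall, stood at 4.06, 3.997, 3.91 and 4.02 in the controls and at 4.23, 4.23, 4.29 and 4.24 with Kir2.1. It had the smallest unadjusted p of the 46 genes, with a difference of 0.25 (SE 0.05, limma adjusted p = 0.551), 1.19-fold with a 95% interval from 1.09 to 1.295, and 0.11 after quantile normalization. SCW4 (YGR279C), a glucanase-like wall protein, stood at 4.10, 4.09, 4.01 and 4.06 against 4.28, 4.28, 4.31 and 4.20, again without overlap, and differed by 0.20 (SE 0.05, limma adjusted p = 0.551), and by 0.06 after quantile normalization. SCW10 and the exoglucanase gene EXG1 were likewise apart. GAS1 (YMR307W), which elongates glucan chains, had groups that did not overlap but a smaller difference of 0.10 (SE 0.06, limma adjusted p = 0.680) that was -0.02 after quantile normalization. GAS3 and GAS5, of the same family, overlapped between groups.

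The enzymes that tie chitin to glucan, CRH1 and UTR2, ran in opposite directions across the cultures. CRH1 (YGR189C), named after its values were seen, read 3.18, 2.75, 2.71 and 2.87 in the controls and 3.24, 2.89, 3.39 and 3.21 with Kir2.1, and differed by 0.31 (SE 0.13, limma adjusted p = 0.601). UTR2 (YEL040W) read 2.42, 2.97, 2.87 and 2.82 in the controls and 2.43, 3.14, 2.24 and 3.15 with Kir2.1. Vector control replicate 1 and the Kir2.1 replicates 1 and 3, where CRH1 was high, were the 3 lowest arrays of UTR2, and Kir2.1 replicate 4 was high for both. The difference of UTR2 was -0.03 (SE 0.23, limma adjusted p = 0.968), and its sign changed when single arrays were left out. Over the 9 remodelling genes the mean was 3.23 ± 0.03 (SD, n = 4) in the controls and 3.39 ± 0.04 (SD, n = 4) with Kir2.1, a difference of 0.16 (SE 0.02), and 0.04 after quantile normalization.

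The 4 remaining genes act at the membrane or beside the wall, and their class mean differed by 0.32 (SE 0.16), beside 0.30 (SE 0.12) for the Pir proteins. DFG5 (YMR238W), which attaches anchored proteins to glucan, stood at 2.104, 1.89, 1.88 and 1.89 in the controls and at 2.30, 2.04, 2.27 and 2.40 with Kir2.1. PUN1 (YLR414C), a plasma membrane protein needed for wall integrity under stress, stood at 2.45, 2.29, 2.40 and 2.37 against 2.75, 2.47, 2.62 and 2.83. The groups were apart in PUN1, and in DFG5 except for vector control replicate 1. Their differences were 0.31 (SE 0.09) and 0.29 (SE 0.09), each with a limma adjusted p of 0.551, and after quantile normalization they were 0.25 and 0.21, so they shrank less than those of the abundant wall proteins. YPS1 (YLR120C), a protease of the cell surface named after its values were seen, stood at 2.39, 1.98, 1.79 and 1.98 against 2.49, 1.95, 2.44 and 2.51, and differed by 0.31 (SE 0.16, limma adjusted p = 0.656). SRL3 (YKR091W), also known as Whi7, which restrains entry into the cell cycle, stood at 1.50, 0.80, 0.71 and 0.75 against 1.47, 0.54, 1.57 and 1.56. It split the 8 arrays into 4 high ones, vector control replicate 1 and the Kir2.1 replicates 1, 3 and 4, and 4 low ones, and differed by 0.35 (SE 0.27, limma adjusted p = 0.711).

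**Figure D4:**
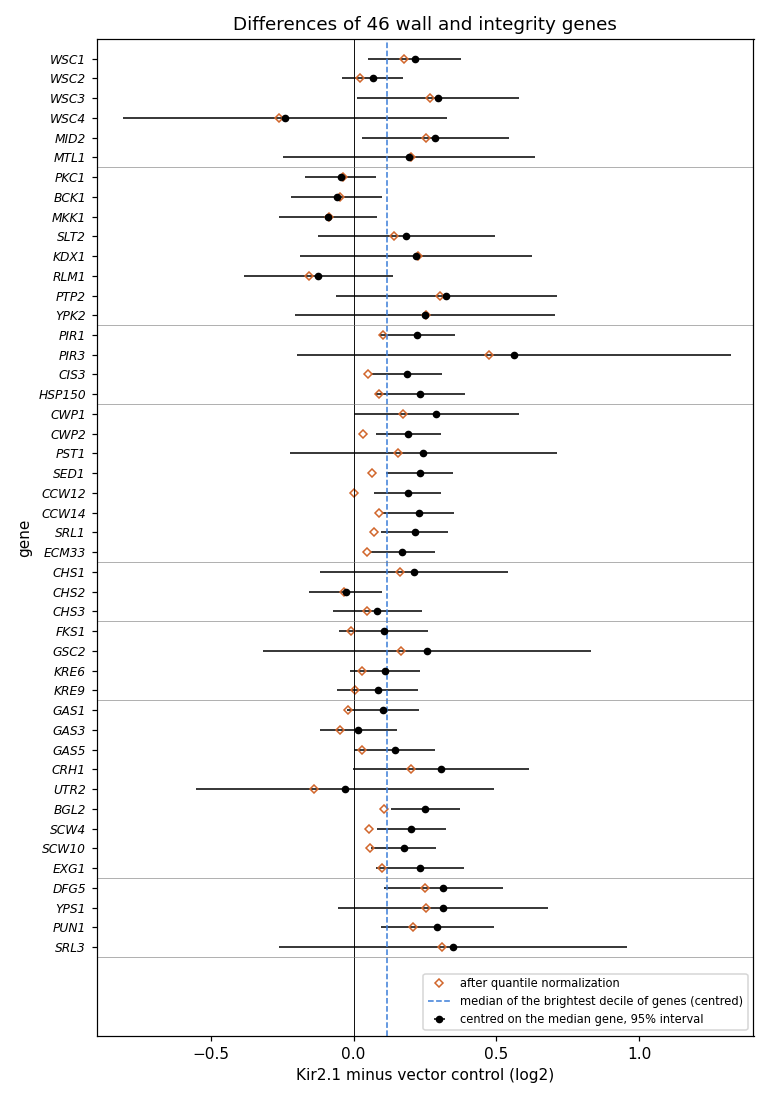
Kir2.1 minus vector control for each of the 46 genes (log2), as black points with 95% intervals from limma, and as open diamonds after quantile normalization; the dashed line is the median difference of the brightest decile of genes, 0.12. BGL2, SED1 and CCW14 have narrow intervals above 0 and diamonds nearer to 0, while PIR3 and GSC2 have wide intervals that include 0.

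These patterns were described by how much the genes varied, so a split by the SD within groups is not separate evidence for them. The SD within groups ran from 0.0163 for WSC2 to 0.554 for PIR3, with a median of 0.0867 over the 46 genes beside 0.133 over all genes. Of the 27 members with a spread below the median gene's, 17 lay wholly above the controls, beside 9.69% of all genes in that range of spread. Of the 19 with a larger spread 1 did, MID2, beside 0.404% of such genes. For steady genes a small difference suffices for groups to part.

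**Figure D5:**
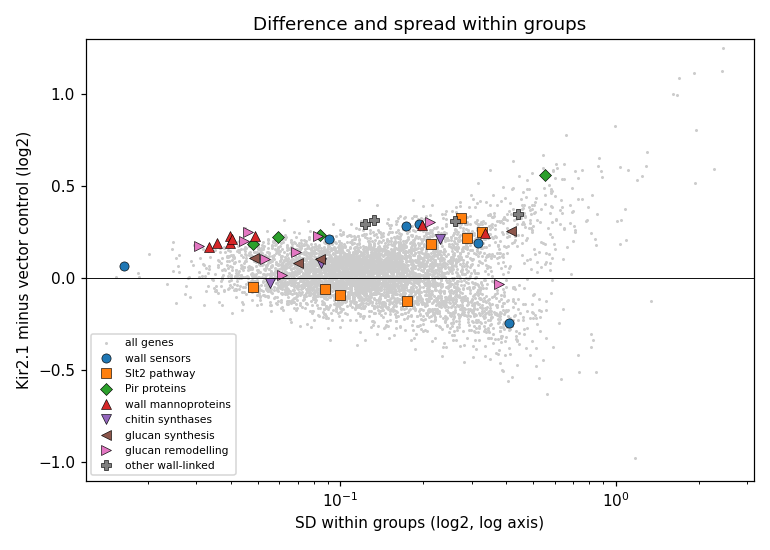
Difference between the groups (log2) against the SD within groups (log2, log axis) for all genes (grey) and for the 46 wall genes by class. The wall mannoproteins and glucan remodelling enzymes lie mostly at SDs under 0.1 with differences near 0.2, and PIR3 has the largest spread of the 46, 0.554, with the largest difference, 0.56.

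Read by array, the members placed Kir2.1 replicates 1, 3 and 4 above the controls more often than replicate 2. Kir2.1 replicate 1 lay above all 4 controls in 30 members, replicate 3 in 35 and replicate 4 in 36, where 36.1% to 37.8% of all genes did so. Kir2.1 replicate 2 lay above all controls in 20 members and below all of them in 10, beside 32.6% and 23.8% of all genes. The lowest value of a member was on vector control replicate 3 in 22 genes, beside 13.7% of all genes, and the highest on Kir2.1 replicates 3 and 4 in 16 genes each, beside 19.4% and 21.5%.

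Other gene groups also varied between the cultures, only in part along with the variable wall genes. The mean of 15 iron regulon genes was 1.54 on vector control replicate 1, 1.85 on Kir2.1 replicate 1 and 1.97 on Kir2.1 replicate 3, and between -1.05 and -0.44 on the other 5 arrays. The mean of 19 general stress genes was 2.18, 2.18 and 2.29 on the same 3 arrays and 1.84 on Kir2.1 replicate 4, and between 1.31 and 1.70 elsewhere. That of 15 ribosome biogenesis genes was lowest there, from 1.01 to 1.09, beside 1.37 to 1.66 elsewhere. Kir2.1 replicate 4 held the lowest iron regulon mean, -1.05, yet was high for PIR3, PTP2 and SRL3. What part these differences between cultures had in the wall genes was not tested. Without the 3 arrays of high iron regulon values, limma called 0 members and 0% of all genes, 40 of the 46 members still had a higher mean with Kir2.1, beside 57.5% of all genes, with a median difference of 0.20, and 25 lay wholly above the controls, beside 17% of all genes in that smaller set of 5 arrays. The 18 found with all arrays are included by construction, because groups that do not overlap stay apart when arrays are left out. The 7 more include WSC3, CRH1, DFG5 and UTR2. WSC4 and CHS2 lay wholly below there, by -0.50 and -0.05, as did 9.63% of all genes. There BGL2 differed by 0.26, SED1 by 0.24, CCW12 by 0.20 and PIR1 by 0.23, while GSC2 differed by 0.05 and PST1 by 0.11. On that smaller set PIR3 differed by 0.58.

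The call count depended on how arrays were weighted. Array weights are estimated by limma from how far each array departs from the fitted mean of its own group. With them 30 of the 46 members were called higher, 65.2% of them beside 18.7% of all genes. None was called lower, beside 13.2% of all genes. The same weighted fit called 93.3% of the iron regulon genes and 68.4% of the general stress genes higher. The lowest weights were 0.231 for Kir2.1 replicate 2, 0.267 for Kir2.1 replicate 4 and 0.372 for vector control replicate 1, and the smallest limma adjusted p of a member was 0.0192. With Kir2.1 replicate 2 and vector control replicate 1 left out, a choice made from their values, 36 members lay wholly above the controls, beside 22.8% of all genes. They are the 18 found with all arrays, again included by construction, and 18 more, PIR3, GSC2, PTP2, SRL3, SLT2 and KDX1 among them. In that smaller set 16 members were called higher by limma, beside 5.98% of all genes, and 0 lower, beside 3.34%. Among them SRL3 differed by 0.78 (SE 0.06), PTP2 by 0.59 (SE 0.07) and PIR3 by 1.09 (SE 0.13), and SED1 and BGL2 by 0.25 and 0.28. The arrays left out were chosen by their values, so these results describe the other 6 arrays. Among those 6, vector control replicates 2 to 4 were low in iron regulon values, while Kir2.1 replicates 1 and 3 were high. The part of that imbalance in these results was not tested.

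Genes of the wall and the pathway outside the 46 were counted in the same way. Of 20 further wall and separation proteins, limma called 0, 19 had a higher mean with Kir2.1 and 5, 25% of them, lay wholly above the controls, beside 58.7% and 5.05% of all genes. However, 14 of the 20 belong to the brightest decile. There 88.1% of genes had a higher mean and 24.6% lay wholly above, so these counts are near those of bright genes. At an unadjusted p under 0.05 in limma, 45% of the 20 were higher, beside 26.6% of that decile, and 0 after quantile normalization. PRY2, a secreted sterol-binding protein, differed by 0.21 (SE 0.06) and TOS1, a wall protein, by 0.18 (SE 0.06). Each had a limma adjusted p of 0.551, and after quantile normalization they differed by 0.11 and 0.06. Of 29 further glucan, chitin and processing genes, limma called 0, 23 had a higher mean, 79.3% of them, and 4 lay wholly above, 13.8% of them, beside the same 58.7% and 5.05%. KRE2, a mannosyltransferase, differed by 0.17 (SE 0.05) and PCM1, which makes a precursor of chitin, by 0.27 (SE 0.08), with a limma adjusted p of 0.551 each. Of 22 further signalling genes, limma called 0, and 13 had a higher and 9 a lower mean, near the 58.7% of all genes, with a median difference of 0.03, and 1 lay wholly above, 4.55% of them. YPK1, the relative of YPK2, differed by 0.23 (SE 0.08, limma adjusted p = 0.551), and BEM2, which turns Rho1 off, by -0.10 (SE 0.05, limma adjusted p = 0.625) with all 4 Kir2.1 values below the controls.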

How the data were processed

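RNA of 4 vector control and 4 Kir2.1 cultures was labelled for Affymetrix yeast arrays with the 3' IVT Express kit, per the labels' protocols. The values the authors deposited are a standardized score for each of 10715 probe sets, with mean 0 and SD 1 on every array. Lowest scores of -0.47 to -0.44 and highest of 8.49 to 9.22 show the shape of a linear intensity. How probes were summarised and corrected for background is not given in these sources.

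The zero of each array was placed 0.005 array SDs below its lowest score, log2 was taken, and each array was centred on its median gene. Before centring, the median gene lay lower with Kir2.1, at -0.13 (Kir2.1 minus control), so signs that change without centring are not particular to 1 gene. Names came from the platform annotation, updated through the R64 RefSeq table, and the brightest probe set stood for each of 5449 genes. WSC1 is listed there as SLG1. No sequences of these genes were used here.

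The test was limma's moderated one (version 3.58.1, under R 4.3.3), two-sided, with no term but group, and it was tested on simulated data. Having 4 arrays a group limits the precision, and the median 95% interval of a log2 difference reached 0.21 to either side. Class means have no test, and their standard errors are over arrays. The 46 genes, their classes and the gene lists were chosen with earlier results of these data known. Genes given with values were, per class, the 2 with the smallest unadjusted p and the 1 with the largest SD over the arrays, 9 chosen in advance (SLT2, RLM1, KDX1, PIR3, FKS1, GSC2, CHS3, CCW12 and GAS1), the 2 smallest in each list of other wall genes, and CWP1, CRH1 and YPS1, added after their values were seen. The remaining 16 members are described by counts, ranges and spans, except where the closing section lists an array that stood apart or held a gene's lowest value. The genes outside the 46 that it names were also picked after their values were seen. The 20 alternatives covered the zero, normalization, dim filter, probe sets, replicate block, array weights, moderation and omitted arrays.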

Additional observations from a re-analysis of the deposited data

Results flagged for a closer look

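Of 92 groups of 4 arrays (46 genes, each in both groups), 9 held an array whose distance from its nearest neighbour made up more of the group's range than Dixon's critical value at the 95% level allows, and about 1 in 20 would be so by chance. Vector control replicate 1 was the high array in 5 of them. It read 0.96 for WSC3 (0.61 to 0.66 on the other controls), 0.055 for YPK2 (-0.45 to -0.43), 3.06 for GAS5 (2.89 to 2.92), 2.104 for DFG5 (1.88 to 1.89) and 1.50 for SRL3 (0.71 to 0.80). Kir2.1 replicate 2 was the low array for YPS1 at 1.95 (2.44 to 2.51 on the other Kir2.1 arrays) and for SRL3 at 0.54 (1.47 to 1.57), and the high array for CWP2 at 4.55 (4.46 to 4.47). Kir2.1 replicate 3 was the high array for BGL2 at 4.29 (4.23 to 4.24), a gap smaller than the difference between the groups.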

How the results depend on the processing

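In 18 of the 20 alternatives, some of which left out arrays, 0 members were called. The exceptions were array weights (30 higher, 0 lower among the members, and 1017 higher and 718 lower over all genes) and the omission of vector control replicate 1 with Kir2.1 replicate 2 (16 and 0, and 326 and 182). The 18 members wholly above the controls became 1 after quantile normalization, 3 with no centring and 12 with centring on the 75th percentile. The count was 25 without the 3 arrays of high iron regulon values, 36 without that pair of arrays, and 18 to 25 over single omissions. Over all genes the share was 17% without those 3 arrays and 22.8% without the pair. Leaving out arrays can only keep or raise this count, so the lower end of 18 was fixed in advance. Quantile normalization lowered the class mean difference to 0.079 for mannoproteins and 0.038 for glucan remodelling. Without centring it was 0.00646 for sensors, 0.0906 for mannoproteins, -0.0409 for chitin synthases, -0.0469 for the Slt2 pathway, 0.00954 for glucan synthesis and 0.026 for glucan remodelling. Centring on the 75th percentile gave 0.11 for glucan remodelling. Signs turned for CHS3 (-0.0465), KRE6 (-0.0193), FKS1 (-0.0242) and GAS1 (-0.0266) with no centring. They also turned for FKS1 (-0.0108) and GAS1 (-0.0188) after quantile normalization, and for WSC4 (0.0348) with array weights. The sign of UTR2 (0.26) turned without the 3 arrays of high iron regulon values, and that of RLM1 (0.0288) without the pair named first. UTR2 ran from -0.17 to 0.14 over the single omissions, which changed no call. Without Kir2.1 replicate 4 the differences were 0.069 for SLT2, 0.104 for YPK2, 0.189 for MID2, 0.167 for CWP1, 0.029 for CHS3, 0.0501 for FKS1 and -0.00718 for WSC4. Without Kir2.1 replicate 3 they were 0.0974 for GSC2, 0.113 for PST1, 0.126 for CHS1 and 0.129 for KDX1, and without Kir2.1 replicate 2 they were 0.415 for YPK2, 0.445 for GSC2 and 0.596 for SRL3. RLM1 differed by -0.0388 without vector control replicate 1. Class means ran from 0.0355 to 0.158 for the Slt2 pathway, 0.0549 to 0.13 for chitin synthases, 0.253 to 0.38 for Pir proteins and 0.254 to 0.446 for the other wall-linked genes. The scaling steps shift all genes by construction; for the other turns the cause was not tested. The replicate block left 0 members called. The count of members wholly above the controls uses the levels alone, so the block could not change it. Same-numbered arrays deviated from their group means with correlations across genes of 0.81, 0.69, -0.66 and 0.39, and 1 of 4 controls correlated best with its own number, so the numbers were not taken as pairs.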

Other observations

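Kir2.1 replicate 4 combined low iron regulon values with the highest levels of several wall genes. Besides SLT2, MID2, YPK2, CWP1 and CHS3, which the text gives above, PRM5, a membrane protein gene known as a target of the pathway, stood at 1.77 there and between 0.54 and 1.28 on the other 7 arrays. CHS7, which releases Chs3 from the endoplasmic reticulum, stood at 1.91 there and between 1.17 and 1.51 elsewhere, and GFA1, the first enzyme of chitin precursor synthesis, at 2.67 and between 2.05 and 2.39. WSC4, BCK1, MKK1 and CHS2 were at their lowest on that array, and RLM1, at 0.74, lay within the range of the controls. In all, 16 members had their highest value there and 4 their lowest, beside 21.5% and 19.4% of all genes. Kir2.1 replicate 3 also held the highest value of 16 members. The genes named as high on Kir2.1 replicate 4 were picked after their values were seen, and these values come from 1 array. Whether they reflect a state of the pathway was not tested.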
